A study of Mus musculus with 2 samples.

Results

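The cells described here are ILC1-like NKp46-positive cells among lymphocytes sorted from mouse CT26 colon carcinomas. They were chosen by their own UMI counts, a UMI being 1 counted RNA molecule. A barcode, which stands for 1 captured cell, first had to hold at least 1 UMI of Ncr1, the gene of NKp46. It also had to hold less than 0.15% of its UMIs in 6 stroma genes, fewer than 2 UMIs in 4 cell cycle genes and fewer than 2 UMIs in 4 MHC class II genes. Among the 10286 of 20821 barcodes that passed, the members were the 425 with at least 3 UMIs in the sum of Cxcr6, Il7r, Tcrg-C1, Krt83 and Lta. They are set against the 8529 barcodes that passed the same filters and had 0 UMIs of these 5 genes, called the reference, while 1332 barcodes with 1 or 2 UMIs lay between them.

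Both libraries came from CT26 tumours that lacked B2m, a subunit of MHC class I, and from cells gated as CD45.2-positive, CD3-negative and NKp46-positive. By the sample titles, the tumours of 1 library had been given IL-15SA and those of the other IL-15SA+IL-21Fc, here called the combination, so both groups carry the IL-15 agent and no untreated group is analysed here. The cells of a treatment were pooled before loading, each group is 1 library, and the sources used here do not give the number, strain or age of the mice. No difference below therefore has a replicate check, no test was made, and every interval is a 95% interval that covers counting error only.

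Innate lymphoid cells of group 1, or ILC1, are relatives of conventional natural killer (NK) cells. Both kinds of cell carry NKp46 and depend on T-bet, the product of Tbx21, while mature NK cells also use Eomes, hold large stores of granzymes and perforin and carry Ly49 receptors. ILC1 are known as tissue-resident cells with more Cxcr6, Il7r and TNF family ligands and with a weaker killing programme, and in tumours NK cells can take up part of this profile.

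The IL-15SA library held 178 members among 3977 filtered barcodes, and the combination library held 247 among 6309. That is 4.48% (3.85 to 5.17, Clopper-Pearson) and 3.92% (3.45 to 4.42). A barcode with more UMIs reaches 3 marker UMIs more easily. After each barcode was thinned to 1000 UMIs, with 0 barcodes left out, the shares were 1.24% (0.927 to 1.61) and 1.44% (1.16 to 1.76), so the order of the libraries turned and no order is read from it. Members had a median of 2884 and 2215 UMIs, against 2641 and 2148 in the reference. The members' summed UMIs were 574534 and 587868, so that 1 UMI stands for 1.74 and 1.70 CPM (counts scaled to a common total, as UMIs of a gene per 1000000 summed UMIs of a class). The libraries shared 60 barcode sequences, among them those of 1 IL-15SA member and 2 combination members, and no sequence was a member in both.

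The genes of the rule did not weigh equally. Cxcr6, the receptor for the chemokine CXCL16, was seen in 111 of the 178 IL-15SA members and in 158 of the 247 combination members, and gave 36.5% and 33.7% of the marker UMIs. Krt83, a hair keratin gene, was seen in 82 and 153 members. Lta, the gene of lymphotoxin alpha, was seen in 52 and 71 members, and Il7r, the interleukin 7 receptor gene, in 38 and 56. Tcrg-C1, a constant segment of the T cell receptor gamma locus, was seen in 57 and 37. No member held all 5 genes. A single gene supplied every marker UMI of 62 IL-15SA members (34.8%) and of 79 combination members (32.0%), and 74 and 108 members had a sum of exactly 3. The highest sum, 44 UMIs in a combination member, included 42 UMIs of Lta.

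**Figure D1:**
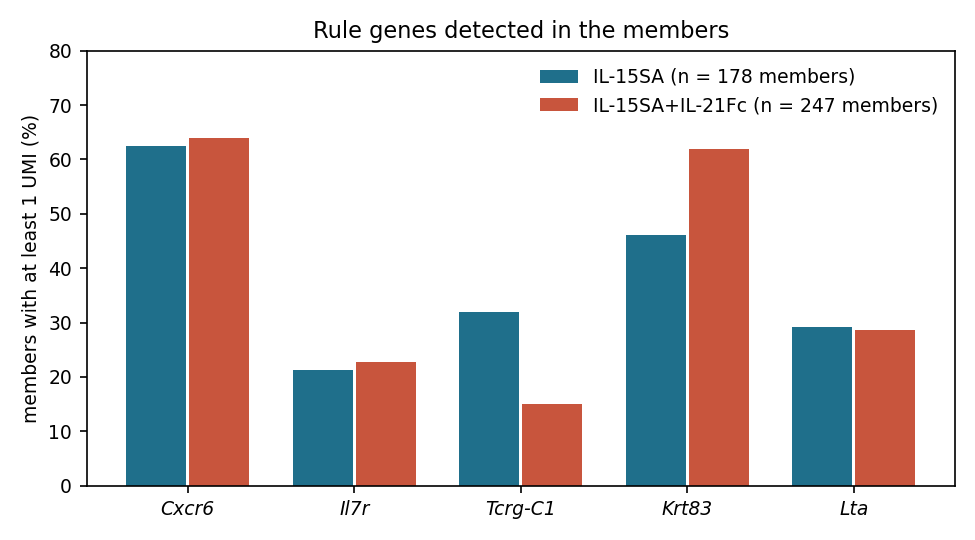
Percent of members with at least 1 UMI of each rule gene, by library. Cxcr6 was the most widely seen gene in both, at 62.4% and 64.0%, and the bars of Tcrg-C1 and Krt83 differ most between the libraries.

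Over all filtered barcodes, which the marker sum did not choose, Krt83 was at 26.7 CPM under IL-15SA and 45.0 CPM under the combination, a ratio of 1.68 (1.47 to 1.93). Lta was at 17.3 and 26.6 CPM, 1.53-fold apart (1.29 to 1.82). Tcrg-C1 was 2.04-fold lower under the combination (1.65 to 2.51), at 20.3 and 9.97 CPM. Cxcr6 was at 44.6 and 50.7 CPM and Il7r at 11.4 and 13.5 CPM. The make-up of the members by rule gene differed between libraries in the same direction for Krt83 and Tcrg-C1. The members are part of all filtered barcodes, however. They held 163 of the 246 Tcrg-C1 UMIs under IL-15SA and 75 of 149 under the combination. For Krt83 they held 171 of 324 and 333 of 672 UMIs. The shared direction is thus partly built in and is no separate support.

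Each rule gene can be read in barcodes that the other 4 chose. In barcodes with at least 3 UMIs of the other 4 genes, Cxcr6 was at 179 CPM under IL-15SA and 294 CPM under the combination. Where the other 4 summed to 0 it was at 31.4 and 35.3 CPM, which gives ratios of 5.68 (4.24 to 7.50) and 8.32 (6.65 to 10.3). Krt83 had the highest ratios in both libraries, 9.78 and 10.1 (7.92 to 12.7 for the second). Lta had the lowest, 5.37 (3.57 to 7.87) and 5.75 (4.16 to 7.81), and those of Il7r and Tcrg-C1 lay between 6.55 and 9.40. All 5 rule genes therefore went together in both libraries, in barcodes of similar depth (median 2765 to 3056 against 2638 to 2644 UMIs in the IL-15SA library).

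The members were next described across all genes. They had high Xcl1, Emb, Tmem176b, Cd226 and Rora, and low Gzma, Klrg1, Prf1 and Ly49 genes, in both libraries. Of 5626 genes at 20 CPM or more in either class, 213 (3.79%) passed 2-fold upward and 85 (1.51%) passed it downward in IL-15SA members against the reference, with 1 CPM added to both values. In the combination library it was 194 (3.37%) and 94 (1.63%) of 5753. Among 5284 genes that could be counted in both, 80 (1.51%) were higher in both, 31 (0.587%) lower in both, and 0 went opposite ways. A gene below 20 CPM in the reference entered only where the members reached 20 CPM. The counts of higher genes therefore include genes admitted through the members alone. The 80 are 37.6% of the higher genes of the IL-15SA library and 41.2% of those of the combination library. With the reference weighted to the members' UMI depth, 79 of the 80 and 30 of the 31 still passed. The median log2 ratio over all these genes was 0.09 and 0.08, and since genes that go with the marker genes had to differ in barcodes chosen this way, these counts are a description.

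**Figure D2:**
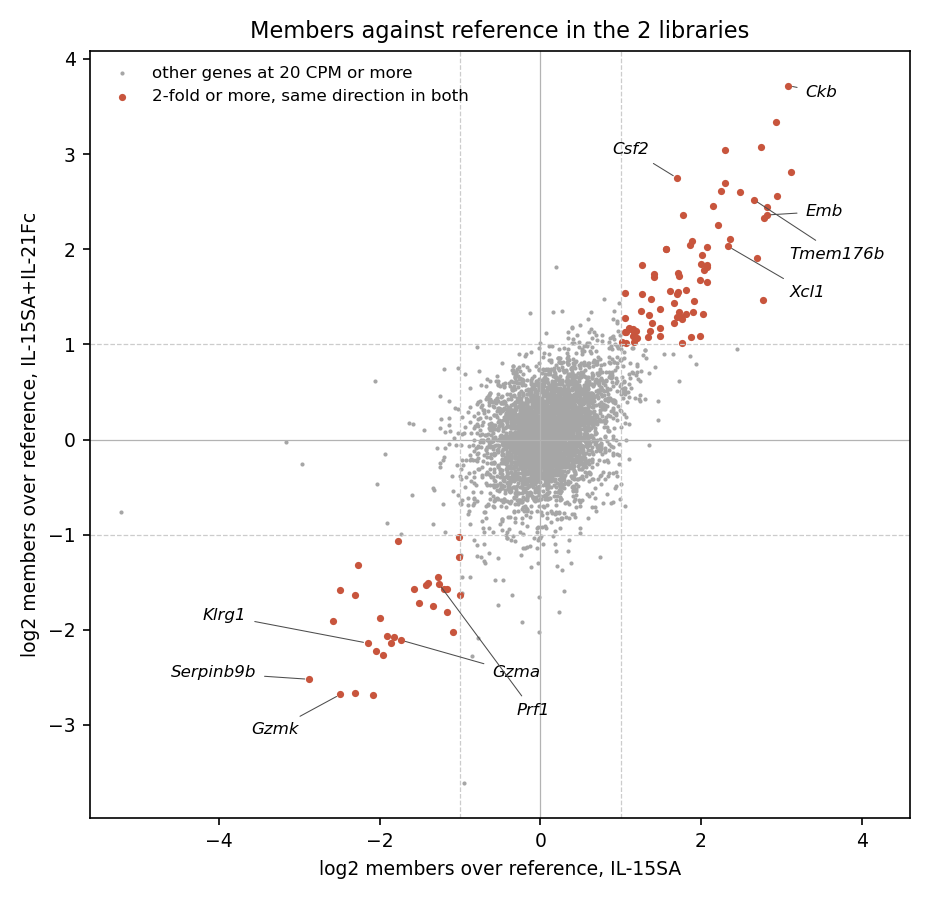
Log2 ratio of members over reference for genes at 20 CPM or more, rule genes left out, with the IL-15SA library on the x axis and the combination library on the y axis. Red points are the 80 higher and 31 lower genes past 2-fold (dashed lines) in both libraries, and the upper left and lower right corners beyond those lines are empty.

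Xcl1 was at a high level in members and several-fold lower in the reference. It encodes lymphotactin, which attracts cross-presenting dendritic cells. Xcl1 was at 3366 CPM in IL-15SA members and 663 CPM in their reference, a ratio of 5.08 (4.83 to 5.34). Under the combination it was at 4377 and 1069 CPM, 4.10-fold apart (3.93 to 4.27). After thinning to 1000 UMIs, 83.7% of IL-15SA members and 82.6% of combination members held a UMI of it, against 34.3% and 44.0% of the reference (94.9%, 92.3%, 56.8% and 63.4% unthinned). Among 21 tumour or stroma barcodes of the combination library, which should lack Xcl1, the thinned share was 9.52%. Csf2, the gene of GM-CSF, was at 204 against 62.0 CPM and 328 against 47.8 CPM, and 48 of its 193 UMIs in combination members came from 1 barcode. Lif, a cytokine of the interleukin 6 family, was at 26.1 against 4.51 CPM and 30.6 against 3.86 CPM. Ifng was at 437 against 290 CPM and 459 against 290 CPM. Ccl5, which encodes the chemokine RANTES, was lower in members, at 2931 against 4556 CPM and 4265 against 9732 CPM. Ccl4, another chemokine gene, was at a similar level to Xcl1 in IL-15SA members but close to its reference, at 3190 against 2601 CPM and 2856 against 3238 CPM.

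Lymphotoxin and TNF ligand genes were higher in members as a group. Of 9 measured genes (5 CPM or more in either class), Lta not counted, 8 were at least 1.5-fold higher in both libraries, where 5.47% of 9143 genes were so in both (18.2% and 17.5% in each library). The list's median log2 ratio was 1.34 and 1.08, against 0.09 over all genes measured in each library. Here and in the lists below, a gene under 5 CPM in the reference was measured only where members reached 5 CPM. Ltb, the partner chain of lymphotoxin alpha, was at 1206 against 477 CPM in the IL-15SA library and 1735 against 820 CPM in the combination. Tnfsf10, the gene of the death ligand TRAIL that is used to tell ILC1 from NK cells, was at 43.5 CPM in IL-15SA members and 49.3 CPM in combination members, with ratios to the reference of 4.34 (2.68 to 6.79) and 4.07 (2.63 to 6.08). Fasl, the ligand of the death receptor Fas, was the exception, at 219 against 167 CPM and 248 against 194 CPM.

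Of 15 measured ILC1 markers outside the rule, 13 were at least 1.5-fold higher in members in both libraries and 0 were lower by that much. Over all genes these shares were 5.47% and 2.83%. The median log2 ratio of the 15 markers was 1.78 and 1.68. Like the other lists, this one was chosen with earlier results of these data known. Tmem176b, which encodes a membrane protein of intracellular compartments, was at 433 against 67.5 CPM and 502 against 86.7 CPM, ratios of 6.42 (5.53 to 7.43) and 5.79 (5.07 to 6.59). The neighbouring gene Tmem176a was at 228 against 34.3 CPM and 218 against 57.3 CPM. In GENCODE M21 both lie on chromosome 6 of mm10, on opposite strands, and overlap by 578 bases, so reads there can be assigned to either. Tumour or stroma barcodes also held Tmem176b, at 71.4% after thinning against 35.2% of combination members and 8.08% of the reference. Of 6 genes of the tumour and stroma list measured in both libraries, 0 were at least 1.5-fold higher in members in both. In the combination library 1 of 7 measured was. The summed level of the whole tumour and stroma list, most of it S100a6, was 1967 against 2265 CPM and 1948 against 2370 CPM. Members and reference had both passed the stroma filter, and a tumour or stroma source of the Tmem176b UMIs was not tested.

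Cd226, the gene of the activating receptor DNAM-1, was at 240 against 34.0 CPM under IL-15SA and at 204 against 39.8 CPM in the combination library. Cd200r1, an inhibitory receptor, was at 38.3 against 3.51 CPM and 44.2 against 5.46 CPM. Cxcr3, a chemokine receptor of cells that enter tissue, was at 134 against 33.1 CPM and 146 against 45.1 CPM. These receptors were thus higher in members of both libraries. Not every marker was higher. Itga1, the gene of CD49a, an integrin that defines ILC1 in many tissues, was at 50.5 against 34.0 CPM under IL-15SA and at 27.2 against 31.8 CPM under the combination, with intervals of the ratio that include 1 (0.980 to 2.17 and 0.484 to 1.41). Rgs1 was at 6832 against 6433 CPM and 7061 against 6634 CPM. Itgae, Zfp683 and Klrb1b had 0 UMIs in members. Their reference levels, at most 3.11 CPM, were too low for a difference to be detectable at this depth.

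Transcription factor genes were split. Rora, an orphan receptor gene active in several innate lymphoid lineages, was at 90.5 against 11.9 CPM and 90.2 against 15.7 CPM, ratios of 7.59 (5.37 to 10.6) and 5.73 (4.15 to 7.79). Ahr, the aryl hydrocarbon receptor gene, was at 87.0 against 23.9 CPM and 69.7 against 27.3 CPM. Maf was at 73.1 against 27.6 CPM and 109 against 38.4 CPM. All 3 were higher in members of both libraries. Tbx21 was at 285 against 208 CPM and 391 against 247 CPM, ratios of 1.37 (1.16 to 1.61) and 1.58 (1.38 to 1.81). Eomes was at 66.1 against 122 CPM, which was 1.84-fold lower, and at 47.6 against 131 CPM, 2.76-fold lower. A UMI of Eomes was found in 27 of the 178 and 21 of the 247 members. After thinning the shares were 6.18% and 4.45%, against 0 of 21 tumour or stroma barcodes of the combination library. The interval of those 21 barcodes reaches 16.1%, which lies above the thinned shares of members and reference alike. The 21 barcodes are thus too few to set Eomes UMIs of either class against background, and no reading is made from them. Zbtb32, a repressor gene of activated NK cells, was at 59.2 against 145 CPM and 30.6 against 85.2 CPM.

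Genes of immature NK cells and their precursors were also high in part, which bears on the name. Of 11 measured, 8 were higher by at least 1.5-fold in both libraries and 1, Thy1, was lower by as much. Over all genes these shares were 5.47% and 2.83%. Emb, which encodes the adhesion protein embigin, was at 627 against 87.9 CPM and 624 against 121 CPM, ratios of 7.13 (6.29 to 8.07) and 5.16 (4.59 to 5.78). Kit, the receptor gene for stem cell factor, was at 45.3 against 7.21 CPM and 49.3 against 7.31 CPM. Cd7 was at 1140 against 456 CPM and 1599 against 882 CPM. Lef1, a transcription factor gene of early lymphoid cells, was at 52.2 against 83.4 CPM and 56.1 against 78.6 CPM, and Thy1, a surface glycoprotein gene, at 691 against 1125 CPM and 429 against 839 CPM. The ILC1-like name therefore rests on markers that are in part shared with immature NK cells, and on a set without clear Itga1.

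**Figure D3:**
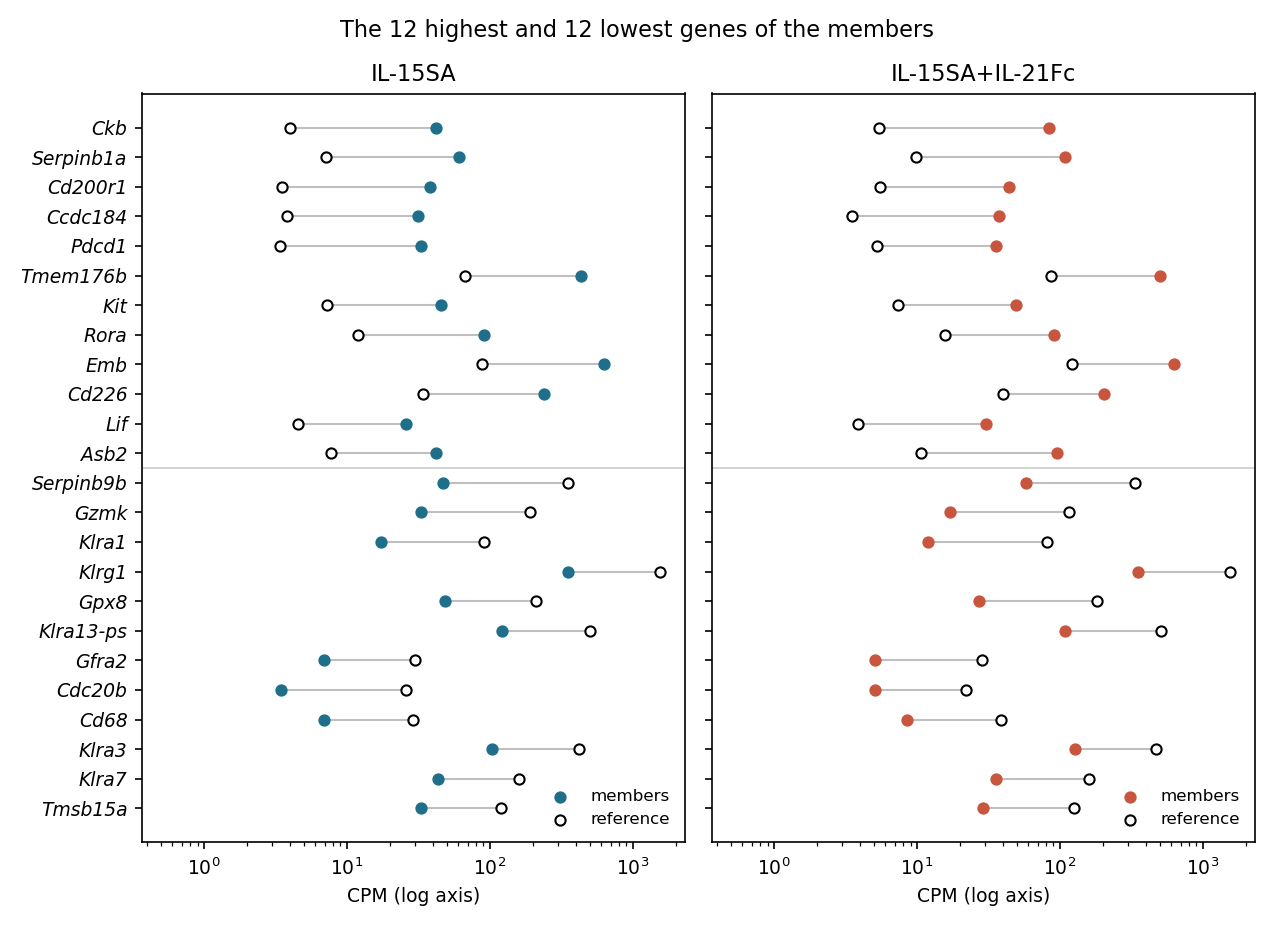
Levels in CPM, on a log axis, of the 12 genes highest (top) and 12 lowest (bottom) in members by the smaller of the 2 libraries' log2 ratios. Filled points are members and open points the reference, with 1 panel per library. Only genes with the same direction in both libraries were ranked, so the shared direction of the gaps was fixed by that choice.

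Several of the 12 highest genes were of low level, and those with a reference below 20 CPM passed the minimum only through the members. Ckb, the brain creatine kinase gene, was at 41.8 against 4.01 CPM and 83.4 against 5.38 CPM, from 18 and 30 members. Serpinb1a, an inhibitor of neutrophil proteases, was at 60.9 against 7.11 CPM and 109 against 9.88 CPM, from 20 and 31 members. Pdcd1, the gene of the checkpoint receptor PD-1, was at 33.1 against 3.41 CPM and 35.7 against 5.22 CPM. Only 5 and 9 members held Pdcd1, and 1 IL-15SA member held 12 of its 19 UMIs. Asb2, an adaptor gene of a ubiquitin ligase, was at 41.8 against 7.71 CPM and 95.3 against 10.7 CPM. At these counts the number of barcodes with a UMI follows the depth, and no share of expressing cells is read from it.

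Receptors for cytokines differed less. Of 28 measured genes of this list, 6 were at least 1.5-fold higher in both libraries and 0 lower in both, beside 5.47% and 2.83% of all genes. Il2ra, the high-affinity chain of the interleukin 2 receptor, was at 48.7 against 13.5 CPM and 64.6 against 11.8 CPM. Il18r1 was at 97.5 against 59.0 CPM and 153 against 73.2 CPM. The receptors of the agents themselves were close in members and reference: Il2rb, which binds interleukin 15, was at 949 against 915 CPM and 876 against 846 CPM, and Il21r at 17.4 against 16.1 CPM and 30.6 against 22.7 CPM. Among BCL2 family genes, which govern survival, 1 of 11 was at least 1.5-fold higher in both libraries, which is near the 5.47% of all genes. That gene was Bcl2a1d, at 76.6 against 25.2 CPM and 107 against 26.0 CPM, and reads of its near-identical copies could be split among them.

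Particular killing genes, Gzma and Prf1 among them, were lower in members, while the cytotoxic list as a whole was split. Gzma, the gene of granzyme A, was at 6393 CPM in IL-15SA members and 21188 CPM in their reference, 3.31-fold lower. In the combination library it was at 4304 against 18586 CPM, 4.32-fold lower. Prf1, the perforin gene, was at 933 against 2242 CPM and 602 against 1726 CPM, 2.40-fold and 2.87-fold lower. A Gzma UMI was found in 176 of 178 and 242 of 247 members. After thinning it was found in 96.6% and 89.1% of members, and in 76.2% of the 21 tumour or stroma barcodes of the combination library, so no reading is made from its presence. Gzmb, the gene of granzyme B, was at 6191 against 8016 CPM and 4477 against 6360 CPM, while Gzmc was at 1272 against 1126 CPM and 1095 against 685 CPM, with the caution that Gzmc lies among near-identical granzyme genes. Of 24 cytotoxic effector genes measured, 6 were at least 1.5-fold lower in both libraries, where 2.83% of 9143 genes were so (10.8% and 11.0% in each library), and 1, Tnfsf10, was higher by as much. The list's median log2 ratio was -0.02 and -0.40, with 12 genes above 0 and 12 below in the IL-15SA library and 9 above and 15 below in the combination. Serpinb9b, a granzyme inhibitor family gene, was at 47.0 against 353 CPM and 57.8 against 335 CPM, 7.51-fold lower in the IL-15SA library and 5.80-fold in the combination.

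Genes beside Gzma on chromosome 13 were low as well. In GENCODE M21 (mm10), Gzma lies on the minus strand at chr13:113093825-113100981. Gzmk, the granzyme K gene, begins 70626 bases beyond it, and was at 33.1 against 191 CPM and 17.0 against 115 CPM. On the other side, 47414 bases away, Gpx8, a peroxidase gene of the endoplasmic reticulum, was at 48.7 against 210 CPM and 27.2 against 181 CPM. Cdc20b, which spans Gpx8, was at 3.48 against 25.8 CPM and 5.10 against 21.9 CPM, from 2 and 3 UMIs in members. These 4 genes were all at least 2-fold lower in both libraries. Esm1, which lies inside Gzmk and also has 2 and 3 member UMIs, had log2 ratios of -0.76 and -1.04. Dhx29, a helicase gene farther from Gzma, was at 52.2 against 34.2 CPM and 18.7 against 34.1 CPM. Gpx8 overlaps Cdc20b on the opposite strand, and the sources used here do not state whether strand was used in counting.

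Receptors of mature NK cells were low too. Klrg1, an inhibitory receptor gene of mature NK cells, was at 350 against 1552 CPM and 350 against 1551 CPM, 4.44-fold and 4.43-fold lower. After thinning, 25.8% of IL-15SA members and 21.5% of combination members held a Klrg1 UMI, against 65.9% and 63.9% of the reference (48.3%, 34.8%, 83.9% and 78.0% unthinned). The share was 19.0% (5.45 to 41.9) in 21 tumour or stroma barcodes of the combination library, of median 1850 UMIs. In the IL-15SA library 0 of 3 such barcodes held one. The members' shares lie within the wide interval of the 21 barcodes, so how much of them is background cannot be told. Of 5 measured Ly49 genes, which encode receptors for MHC class I, 4 were at least 1.5-fold lower in both libraries. Of all genes 2.83% were so. Klra3 was at 104 against 419 CPM and 128 against 472 CPM, and Klra7 at 43.5 against 161 CPM and 35.7 against 161 CPM. The fifth, Klra5, was at 167 against 144 CPM and 100 against 119 CPM, and Klra genes are near-identical copies whose reads can be split. Receptors of the NKG2 family went the other way or stayed close: Klrc1, the gene of NKG2A, was at 1236 against 762 CPM and 1436 against 831 CPM, and Klrd1, its partner CD94, at 896 against 920 CPM and 1041 against 986 CPM.

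Of all 17 measured conventional NK markers, 9 were lower by at least 1.5-fold in both libraries and 1 was higher. The gene that was higher was Cx3cr1, a chemokine receptor gene, at 3 UMIs in the members of each library. Of all genes, 2.83% were lower by as much in both libraries and 5.47% higher. Klf2, a transcription factor gene of circulating lymphocytes, was close in both classes, at 510 against 529 CPM in the IL-15SA library and 696 against 711 CPM in the combination. Irf8 and Klrb1b had 0 UMIs in members and reference alike. Genes such as Il2rg, on which NK cells depend, also had 0 UMIs in these files, and where such zeros come from was not tested.

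**Figure D4:**
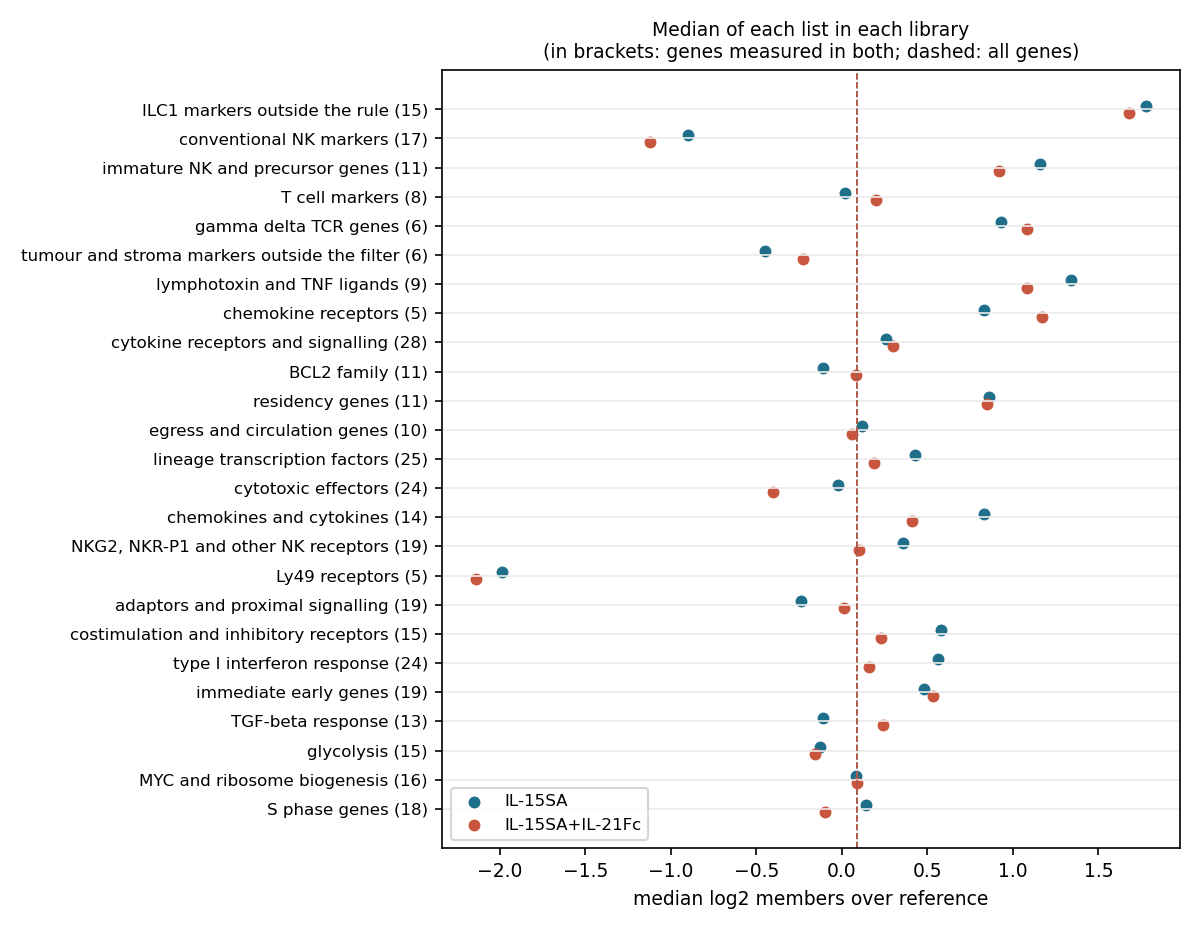
Median log2 ratio of members over reference for each gene list with at least 5 genes measured in both libraries (number in brackets), with 1 point per library and dashed lines at the median of all genes at 5 CPM or more. The ILC1 list lies farthest to the right, at 1.78 and 1.68, and the Ly49 list farthest to the left, at -1.99 and -2.14.

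Promoters are shown for 2 rule genes and for the highest-level gene on each side, because these genes went together or apart across the members. Each sequence is the 250 bases before the RefSeq start (GRCm38.p6), on the gene's strand, with matches to searched motifs in capitals. Cxcr6 is from chr9:123806227-123806476 (plus strand), Lta from chr17:35205352-35205601 (minus), Xcl1 from chr1:164935523-164935772 (minus) and Gzma from chr13:113100982-113101231 (minus).
Cxcr6: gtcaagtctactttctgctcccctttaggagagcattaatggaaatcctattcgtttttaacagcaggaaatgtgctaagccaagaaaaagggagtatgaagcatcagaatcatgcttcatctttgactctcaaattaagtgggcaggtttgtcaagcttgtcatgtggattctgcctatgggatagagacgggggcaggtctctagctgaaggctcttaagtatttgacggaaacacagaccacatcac
Lta: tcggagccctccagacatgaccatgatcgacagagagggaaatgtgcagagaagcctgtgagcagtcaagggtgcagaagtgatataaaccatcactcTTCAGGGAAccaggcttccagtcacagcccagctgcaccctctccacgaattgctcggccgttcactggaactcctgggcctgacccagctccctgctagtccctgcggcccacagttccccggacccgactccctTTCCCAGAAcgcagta
Xcl1: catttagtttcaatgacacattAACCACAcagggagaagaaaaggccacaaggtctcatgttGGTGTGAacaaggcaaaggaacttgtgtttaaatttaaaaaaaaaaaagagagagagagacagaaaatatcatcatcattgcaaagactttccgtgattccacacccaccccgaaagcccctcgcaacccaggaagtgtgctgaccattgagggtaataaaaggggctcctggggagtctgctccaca
Gzma: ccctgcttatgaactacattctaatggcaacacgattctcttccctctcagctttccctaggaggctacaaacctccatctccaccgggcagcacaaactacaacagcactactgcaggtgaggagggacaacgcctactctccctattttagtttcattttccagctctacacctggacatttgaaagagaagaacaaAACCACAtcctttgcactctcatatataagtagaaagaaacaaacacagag
The motifs searched on both strands were TCACACC for T-box factors, AACCACA for RUNX factors, ATCAAAG for TCF7 and LEF1, and TTCNNNGAA for STAT factors, which reads the same on both strands. Of all 32817 such windows, 3.33%, 4.39%, 3.21% and 7.01% held them. The Xcl1 window held a RUNX match and, on the opposite strand, a T-box match. The Gzma window held a RUNX match, the Lta window 2 STAT matches and the Cxcr6 window 0 matches. These are matches of letters only, with no binding measured.

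T cell receptor genes call for a separate look, since Tcrg-C1 is a rule gene and the sort removed CD3-positive cells. Tcrg-C4, another gamma constant segment, 127533 bases from Tcrg-C1, was at 503 against 108 CPM and 500 against 104 CPM. Trdc, the delta constant segment that T cells of the gamma delta kind also use, was lower in members, at 150 against 396 CPM and 112 against 321 CPM. Of 6 measured gamma delta receptor list genes, 3 were at least 1.5-fold higher in both libraries and 1 lower, beside 5.47% and 2.83% of all genes. The list's median log2 ratio was 0.93 and 1.08. Tcrg-C2 was at 8.70 against 1.00 CPM and 11.9 against 0.964 CPM, from 5 and 7 member UMIs. Tcrg-V1 was at 12.2 against 1.80 CPM and 17.0 against 2.01 CPM. A gamma delta T cell source was not tested. The sum of Cd3d, Cd3e and Cd3g was 111 against 161 CPM and 49.3 against 182 CPM. Barcodes with at least 2 CD3 UMIs made up 5.06% of IL-15SA members and 2.02% of combination members, against 10.3% and 9.50% of the reference. Summed CD3 transcripts were therefore not more frequent in members than in the reference. The T cell list as a whole was split, with median log2 ratios of 0.02 and 0.20. Of 9 T cell markers measured in the IL-15SA library 4 were at least 1.5-fold higher, beside 18.2% of all genes. Of 8 measured in both libraries 1, Trbc2, was higher by as much in both and 1 was lower. Over all genes these shares were 5.47% and 2.83%. Trac, the alpha constant segment, was 2.04-fold higher in IL-15SA members than in their reference (1.26 to 3.15), where it was at 19.6 CPM. A single IL-15SA member held 7 of the 23 Trac UMIs. Without the highest barcodes the log2 ratio of Trac in that library went from 0.99 to 0.53. In the combination library Trac was at 35.7 against 23.9 CPM, with an interval of the ratio from 0.913 to 2.33. Trbc2, a beta constant segment, was higher in members, at 482 against 262 CPM and 682 against 345 CPM, while Trbc1 was at 1069 against 1146 CPM and 1131 against 1166 CPM. Cd4 and Cd8a had 0 UMIs in members, and a single IL-15SA member held 6 of the 8 Cd3e UMIs.

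Most markers of other lineages were at 0. All 10 B cell markers were at 0 UMIs in members of both libraries. Their summed level in the reference was 1.40 and 1.69 CPM, below the 1.74 and 1.70 CPM of 1 member UMI. The Ncr1 and MHC class II filters had also acted on all barcodes first, so these zeros are no test of lineage. Of 12 ILC3 markers, 8 and 9 were at 0, Il23r and Il17a among them, and of 9 ILC2 markers in the files 6 were at 0 in each library, Il5 and Il13 among them. Some that were seen were higher in members. Gata3, a transcription factor gene of ILC2 that other lymphocytes also use, was at 55.7 against 36.5 CPM, a ratio of 1.53 (1.03 to 2.19), and at 51.0 against 39.3 CPM, a ratio of 1.30 (0.867 to 1.88). Tnfsf11, the RANK ligand gene, was at 6.96 against 2.71 CPM and 11.9 against 1.61 CPM, from 4 and 7 member UMIs, with ratios of 2.57 (0.654 to 7.39) and 7.41 (2.65 to 18.2). Of 18 myeloid and dendritic markers, 14 and 15 were at 0. The summed level of these 18 was 251 against 296 CPM and 284 against 339 CPM, most of it Cst3 at 225 and 257 CPM in the members.

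Barcodes below the threshold lay between members and reference. In the IL-15SA library Gzma was at 21188, 16388 and 10496 CPM at sums of 0, 1 and 2, then at 5777 CPM at the threshold sum of 3. In the combination library the values were 18586, 11969, 8433 and 5116 CPM. Xcl1 was at 663, 1289, 2221 and 3546 CPM under IL-15SA and at 1069, 2369, 3172 and 3493 CPM in the combination library. Emb was at 357 CPM just outside the threshold and 675 CPM just inside it in the IL-15SA library, and at 441 and 609 CPM in the combination. At sums of 1 and 2 all 3 genes were between their levels at 0 and 3. Above the threshold Gzma stayed between 5777 and 7448 CPM in the IL-15SA library and between 3584 and 5116 CPM in the combination.

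**Figure D5:**
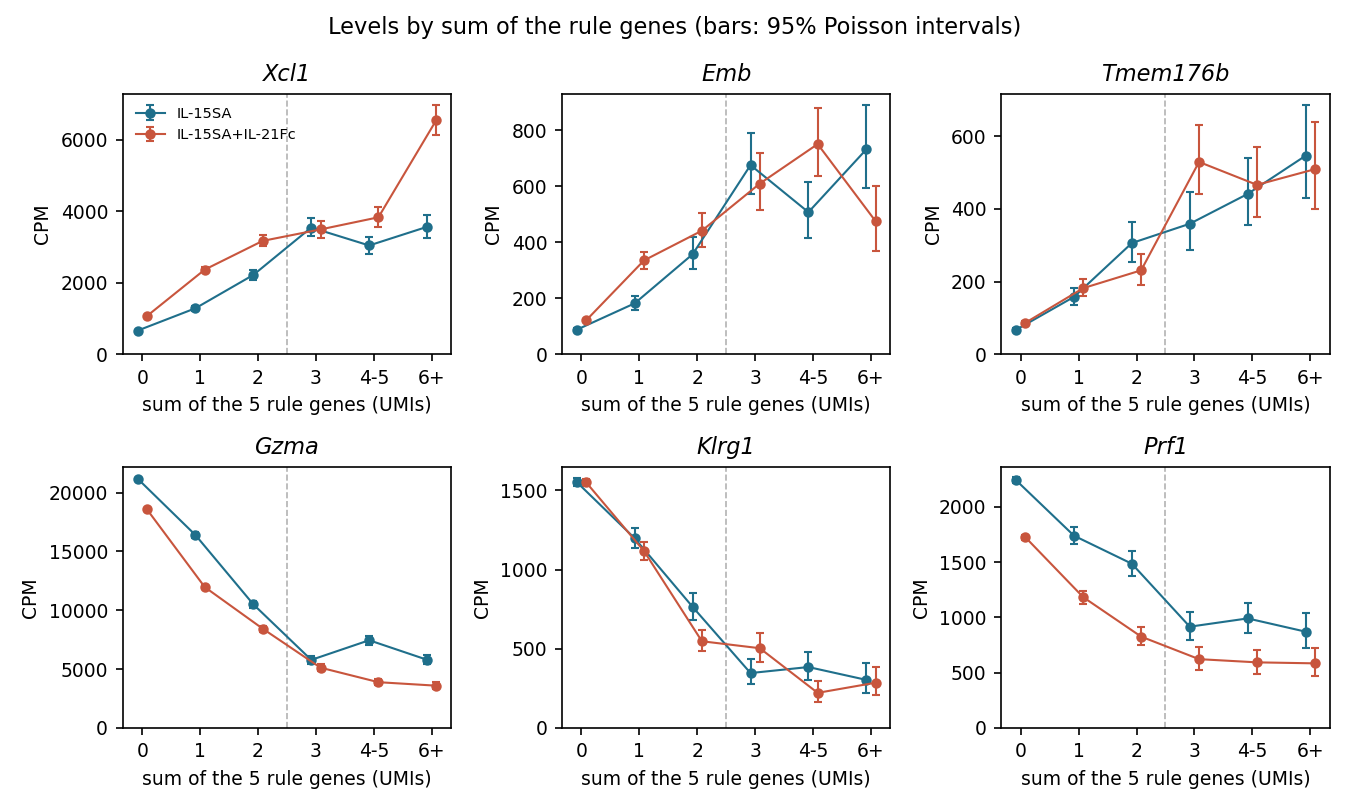
Level in CPM of 6 genes by the UMI sum of the 5 rule genes, 1 line per library, with 95% Poisson intervals. Members lie right of the dashed line, and levels between sums of 0 and 3 pass through intermediate values, as for Klrg1 in the IL-15SA library at 1552, 1197, 764 and 346 CPM.

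Leaving any 1 rule gene out of the sum gave similar profiles. With the other 4 genes at 3 UMIs or more against 0, the log2 ratio of Xcl1 ran from 2.13 to 2.44 in the IL-15SA library and from 1.91 to 2.13 in the combination. That of Gzma ran from -1.78 to -1.68 and from -2.15 to -2.03. That of Klrg1 ran from -2.26 to -1.95 and from -2.30 to -2.07. The direction of these 3 genes was thus the same for each of the 5 reduced sums. Each reduced set is a part of the members, 99 to 155 of the 178 and 144 to 226 of the 247. The sets therefore overlap by construction, and their likeness is a description and no separate check.

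Members were also split by whether they held a Klrg1 UMI, which may be background in any 1 barcode, given the shares above. A Klrg1 UMI was present in 86 of 178 IL-15SA members and in 86 of 247 combination members, whose median depth was 3205 and 2509 UMIs against 2689 and 2077 in members without it. Prf1 was at 1175 CPM in IL-15SA members with a Klrg1 UMI and 658 CPM in those without, and at 840 and 436 CPM in the combination library. Gzma was at 7464 and 5178 CPM, and at 5748 and 3296 CPM. Both genes were thus at higher levels in the members with a Klrg1 UMI, which were also deeper. Without a Klrg1 UMI, Xcl1 was at 3546 and 4627 CPM, and with it at 3208 and 4018 CPM, all above the reference. Emb was at 534 CPM with a Klrg1 UMI and 732 CPM without in the IL-15SA library, and at 550 and 676 CPM in the combination. In the 27 and 21 members with an Eomes UMI, Rora was at 18.1 CPM (2.19 to 65.3) and 0 CPM (up to 62.2), against 108 CPM in 151 and 100 CPM (75.1 to 131) in 226 members without one.

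Members also differed by the rule gene they carried. With 2 or more Krt83 UMIs, Xcl1 was at 4523 CPM in 49 IL-15SA members and 4834 CPM in 98 combination members, against 3159 and 3991 CPM in members with no Krt83. Emb was at 863 against 460 CPM and 759 against 459 CPM in the same split. Gzma was lower in members with Krt83, at 4795 against 7151 CPM and 3507 against 4832 CPM. With 2 or more Lta UMIs, Emb was at 418 CPM in 24 IL-15SA members and 491 CPM in 45 combination members, against 726 and 625 CPM with no Lta. The split by Krt83 did not go one way for every gene. Klrg1 was at 491 CPM with Krt83 and 325 CPM without in the IL-15SA library, and at 284 and 416 CPM in the combination. Tmem176b was at 525 and 375 CPM, and at 455 and 610 CPM.

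The study's own contrast is the combination against IL-15SA. Within members, 261 of 5950 genes at 20 CPM or more in either library (4.39%) were at least 2-fold higher in the combination and 207 (3.48%) at least 2-fold lower. In the deeper reference 9 (0.171%) and 10 (0.190%) of 5277 were. A gene at 20 CPM has about 12 UMIs in the members of a library, so a 2-fold difference there can lie within counting error. At 50 CPM or more, 31 (0.984%) and 44 (1.40%) of 3152 genes passed. At 100 CPM or more, 3 (0.177%) and 7 (0.412%) of 1699 genes passed. These 10 genes were singled out after their values were seen.

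Ifitm1, whose product is a membrane protein induced by interferon, was at 808 CPM in IL-15SA members and 206 CPM in combination members, 3.92-fold lower (3.21 to 4.83). In the reference it was at 885 and 362 CPM. A single combination member held 57 of its 121 UMIs, and without the highest barcode of each library the log2 ratio went from -1.97 to -2.75. Tnfrsf9 encodes 4-1BB, a costimulatory receptor. Its level in members was 501 and 238 CPM, 2.10-fold lower (1.71 to 2.59), and in the reference 663 and 419 CPM. Gzmd and Gzme, near-identical granzyme genes, were 2.20-fold and 2.28-fold lower. These 4 genes were lower in the reference of the combination library too. Icam1, an adhesion molecule gene, was at 64.4 and 139 CPM in members, a ratio of 2.17 (1.45 to 3.29), and at 78.4 and 87.4 CPM in the reference. Chordc1, a cochaperone gene, was at 101 and 45.9 CPM in members, 2.20-fold lower (1.37 to 3.61), and at 65.9 and 62.7 CPM in the reference. Whether members and reference differed in this contrast was not tested.

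The rule for this contrast, the 6 highest and 6 lowest genes at 50 CPM or more, included 2 genes carried by 1 barcode each. Hipk3, a kinase gene, was at 12.2 and 59.5 CPM, but 33 of its 35 combination UMIs came from 1 member, and without the highest barcodes its log2 ratio went from 2.20 to -1.38. Ccl1, a chemokine gene, was at 66.1 and 1.70 CPM, and 36 of its 38 IL-15SA UMIs came from 1 member. Rab27a, a gene of granule release, was spread over more cells, at 55.7 CPM from 26 IL-15SA members and 13.6 CPM from 8 combination members, 4.09-fold lower (1.85 to 10.3). Tm4sf1, a tumour and stroma marker, was at 26.1 CPM from 14 members and 66.3 CPM from 29. Of 7 measured markers of that list, 6 were at least 1.5-fold higher in combination members, beside 20.3% of 10125 genes. Their median log2 ratio was 1.31, against 0.75 in the reference, and their part in this contrast was not tested. The median of the ILC1 list in this contrast was 0.05 in members and 0.25 in the reference, and that of the conventional NK list -0.03 and 0.11. Xcl1 had a ratio of 1.30 (1.23 to 1.38) in members and 1.61 (1.57 to 1.66) in the reference.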

How the data were processed

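Per the labels' protocols, single-cell libraries were made from sorted tumour NK cells with the GEXSCOPE microwell kit and sequenced as paired-end reads. Both matrices, as deposited, hold whole UMI counts that were not normalized. Per the submitters' processing notes, the tools were cutadapt, featureCounts, Seurat 4 and Scanpy, with mm10 as the build. An aligner and a gene annotation were not given in the sources used here. Treatment groups follow the sample titles, from which the series title differs. Of 53715 genes, 53620 IDs are in GENCODE M21.

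The members, the gene lists and the comparisons were chosen with earlier results of these data known. UMIs were summed per class and library and scaled to CPM. Log2 ratios, and each count past 1.5-fold or 2-fold, have 1 CPM added, and printed folds have nothing added. Intervals are exact Poisson for levels, conditional binomial for ratios and Clopper-Pearson for shares. Genes were named by a rule: the 12 highest and 12 lowest by the smaller log2 ratio of the libraries, at 20 CPM or more in both and with at least 1.5-fold after depth weighting in 10 bins. Only genes with the same direction in both libraries were ranked. Rule and filter genes and mitochondrial, ribosomal protein, haemoglobin and model genes were left out. Then came 4 genes per list, the cell type markers, and 6 genes each way between libraries at 50 CPM or more. Some genes of the lists, of the locus and at 100 CPM are named outside it. The automatic threshold of Scrublet marked 3 and 0 barcodes, too few to have worked, so doublets were kept. Of the 5% with the highest score, 1 and 3 were members. The scripts were checked on simulated counts. Alternatives changed the marker sum, the filters, the depth weighting, the scaling, doublets, CD3 and the CPM minimum. Python 3.11.15, numpy 2.4.6, scipy 1.17.1 and scanpy 1.11.5 were used.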

Additional observations from a re-analysis of the deposited data

Results flagged for a closer look

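Barcodes with a marker sum of 3 or more were also found outside the filters, in 187 of 365 cases in the IL-15SA library (51.2%) and 260 of 507 in the combination library (51.3%). Of these, 157 and 185 had 2 or more UMIs of the cell cycle genes, and 56 and 106 had 2 or more MHC class II UMIs. They made up 4.19% and 4.18% of the barcodes with cell cycle UMIs, and 12.4% and 12.1% of those with MHC class II UMIs. Xcl1 was at 2422 and 3696 CPM in all such barcodes, Emb at 480 and 556 CPM, and Gzma at 6237 and 4760 CPM.

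For 4 genes of the lists the members lay on opposite sides of the reference in the 2 libraries, by at least 1.5-fold each way, and this difference between libraries was not tested. The log2 ratio of Ccl1 was 3.61 in the IL-15SA library and -2.17 in the combination, with 36 of 38 UMIs from 1 member. That of Cd81, a tetraspanin gene, was 0.91 and -1.44, from 10 and 3 member UMIs. That of Stx11, a gene of granule fusion, was 0.75 and -1.24, from 19 and 6 UMIs. That of Pmepa1, a TGF-beta response gene, was -1.33 and 1.33, from 1 and 8 UMIs.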

How the results depend on the processing

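The 24 genes highest and lowest in members kept their direction in both libraries under every alternative run, with 608 of 624 values within counting error and 16 moved. These genes were picked as extremes with the same direction in both libraries and at least 1.5-fold after depth weighting. Depth weighting is also among the alternatives, and the alternatives share most barcodes. The kept direction was thus largely set by the choice and is no separate check. The count of genes at least 2-fold higher in both libraries, 80, became 168 with a 5 CPM minimum and 248 with none, and the 31 lower became 85 and 415. Without the barcode with the most UMIs of each gene, chosen after seeing the data, the 31 became 50, and 68 of the 80 higher and all 31 lower genes remained. This step takes a larger part of a gene's few member UMIs than of its reference UMIs, which lowers most ratios. It therefore favours the lower genes, and their number is no sign of stability. The member shares of 4.48% and 3.92% became 8.05% and 7.32% with a sum of at least 2, 2.62% and 2.20% with at least 4, and 1.24% and 1.44% after thinning. Between libraries within members, the 261 higher genes became 109 with a sum of at least 2, 427 with at least 4, 155 with 5 CPM added, 1218 with a 5 CPM minimum and 2658 with none. The 207 lower genes became 73, 446, 131, 912 and 2123 in the same order, 337 without stroma UMIs and 342 without MHC class II UMIs. The Ccl1 log2 ratio between libraries became 0.14 without stroma UMIs. That of Hipk3 became -0.91 with a sum of at least 4 and -1.38 without the highest barcodes. The cause of these shifts was not tested, except that fewer barcodes or a lower minimum leave fewer UMIs per gene. No paired analysis was possible because each treatment has 1 library and no comparison rests on replicates. The number of member UMIs limits genes under 20 CPM, where 1 barcode can set a value.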

Other observations

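Immediate early genes, which switch on quickly after activation or tissue handling, were in part higher in members. Of 19 measured in both libraries, 5 were at least 1.5-fold higher in both and 0 lower in both, beside 5.47% and 2.83% of all genes, and the list's median log2 ratio was 0.48 and 0.53. Nr4a1, an orphan receptor gene of recent receptor signalling, was at 665 against 332 CPM and 856 against 443 CPM, and Zfp36, an mRNA decay factor gene, at 910 against 412 CPM and 1162 against 597 CPM. Nr4a2, a relative of Nr4a1, was at 38.3 against 60.3 CPM and 45.9 against 59.4 CPM.

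Glycolysis genes lay slightly below the reference, with medians of -0.13 and -0.16. Of 15 measured, 10 were below 0 in the IL-15SA library and 14 in the combination. Over all measured genes, 3966 of 9613 and 4175 of 9850 were below 0. Only 1 of the 15, Pfkp, was at least 1.5-fold lower in both libraries, where 2.83% of all genes were so. Pfkp was at 66.1 against 122 CPM and 51.0 against 95.7 CPM. Type I interferon response genes differed between libraries in how many were higher: 11 of 25 measured were at least 1.5-fold higher in IL-15SA members and 2 of 25 in combination members, beside 18.2% and 17.5% of all genes, and the difference was not tested. Between libraries, combination over IL-15SA, the median log2 ratio of this list was 0.49 in the reference and 0.07 in members. Ifit3, an interferon-induced RNA-binding protein gene, was at 20.9 against 7.51 CPM and 47.6 against 18.6 CPM. Only 4 IL-15SA members held Ifit3, and 1 of them held 6 of its 12 UMIs. Without the highest barcodes its log2 ratio went from 1.36 to 0.59 in the IL-15SA library and from 1.31 to 0.94 in the combination.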
